A study of Mus musculus with 7 samples.

Results

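The nuclear-encoded subunits of the mitochondrial respiratory chain were taken from the gene count table by name, as protein-coding genes whose symbols begin like those of the subunits of complexes I to V. The rule found 86 of the 54532 genes in the table, namely 38 for complex I, 4 for complex II, 8 for complex III, 18 for complex IV and 18 for complex V. The counts came from mouse retina after infusion of angiotensin II (Ang II, a pressor peptide) in 4 libraries or of saline in 3, all sampled at day 28. The series text gives all mice as ApoE-/-, while the sample labels give the genotype of all of them as WT, and Apoe had 150 to 406 counts in every library of both groups. Strain, age and sex, and the number of animals behind a library, are not given in the sources used here, so p-values measure the spread between these libraries, which may be technical. Total counts ran from 14655431 to 17563493 per library.

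As background, complexes I to IV pass electrons from NADH and succinate to oxygen and complexes I, III and IV pump protons across the inner mitochondrial membrane, while complex V, the ATP synthase, lets the protons back to make ATP. A few subunits of complexes I, III, IV and V are encoded in the mitochondrial genome, and the others, with all of complex II, in the nucleus. In the retina the inner segments of photoreceptors are packed with mitochondria, although the tissue also makes much lactate in the presence of oxygen. Several subunits of complex IV exist in general forms and in forms restricted to heart and skeletal muscle, lung or testis.

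Promoter sequences of 66 of the 86 genes (71 promoters) were found in RefSeq for build GRCm38.p6, each with 250 bases before and 50 bases after a transcription start. Below are 6 of them, for genes named in the results. Cox8a and Cox7a2 are general forms and Cox8b and Cox7a1 are the muscle and heart forms of the same subunits, Uqcrc1 is among the genes whose groups did not overlap, and Atp5k varied most between libraries among the abundant members. Capitals mark matches, on either strand, to GCGCATGCG (nuclear respiratory factor 1, NRF1), CGGAAG (the core read by ETS factors such as GABP), AAGATGGCG (YY1) or AAGGTCA (an estrogen-related receptor half-site).
Cox8a, chr19:7217567-7217866, minus strand: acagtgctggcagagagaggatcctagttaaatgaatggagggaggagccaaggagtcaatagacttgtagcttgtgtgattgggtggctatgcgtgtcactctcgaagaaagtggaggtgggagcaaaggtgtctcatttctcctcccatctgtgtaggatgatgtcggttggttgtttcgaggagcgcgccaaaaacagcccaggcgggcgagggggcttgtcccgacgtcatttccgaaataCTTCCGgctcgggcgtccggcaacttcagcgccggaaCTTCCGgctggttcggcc
Cox8b, chr7:140900397-140900696, minus strand: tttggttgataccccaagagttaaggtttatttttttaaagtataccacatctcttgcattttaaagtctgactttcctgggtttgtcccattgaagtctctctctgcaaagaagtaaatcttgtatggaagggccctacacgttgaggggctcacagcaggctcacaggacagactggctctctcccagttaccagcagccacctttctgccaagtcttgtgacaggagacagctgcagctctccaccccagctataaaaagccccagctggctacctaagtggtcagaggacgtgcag
Cox7a2, chr9:79759804-79760103, minus strand: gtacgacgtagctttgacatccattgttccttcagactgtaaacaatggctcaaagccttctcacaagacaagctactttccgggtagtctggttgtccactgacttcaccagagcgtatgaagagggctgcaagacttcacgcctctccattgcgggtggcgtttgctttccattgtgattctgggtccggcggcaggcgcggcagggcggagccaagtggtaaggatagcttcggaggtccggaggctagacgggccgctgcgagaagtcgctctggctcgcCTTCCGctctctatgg
Cox7a1, chr7:30183921-30184220, plus strand: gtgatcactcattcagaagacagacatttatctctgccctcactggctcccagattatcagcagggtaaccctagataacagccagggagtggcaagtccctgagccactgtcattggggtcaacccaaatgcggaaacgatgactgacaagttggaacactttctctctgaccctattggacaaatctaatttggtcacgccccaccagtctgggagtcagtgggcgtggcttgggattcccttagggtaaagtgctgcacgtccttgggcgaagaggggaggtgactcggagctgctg
Uqcrc1, chr9:108936398-108936697, plus strand: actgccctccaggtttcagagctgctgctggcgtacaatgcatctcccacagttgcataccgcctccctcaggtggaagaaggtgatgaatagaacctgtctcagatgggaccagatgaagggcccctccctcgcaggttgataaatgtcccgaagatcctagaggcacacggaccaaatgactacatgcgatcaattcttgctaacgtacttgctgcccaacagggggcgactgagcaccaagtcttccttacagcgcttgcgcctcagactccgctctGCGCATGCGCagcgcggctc
Atp5k, chr5:108434350-108434649, minus strand: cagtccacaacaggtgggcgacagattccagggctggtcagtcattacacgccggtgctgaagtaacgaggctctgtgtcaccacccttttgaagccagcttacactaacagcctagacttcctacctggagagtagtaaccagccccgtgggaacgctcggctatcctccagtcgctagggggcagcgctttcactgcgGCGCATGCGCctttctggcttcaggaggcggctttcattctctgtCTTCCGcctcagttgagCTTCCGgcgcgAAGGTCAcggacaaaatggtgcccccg
The general forms Cox8a and Cox7a2 hold CGGAAG matches, and the muscle and heart forms Cox8b and Cox7a1 hold no match to any of the 4 motifs in this window. Such an absence is not particular to tissue forms, since the promoters of the general complex IV genes Cox7c and Cox7b hold no match either. At least 1 of the 4 motifs was found in 38 of the 71 member promoters (53.5%, against 22.9% of all promoters). The Uqcrc1 promoter holds NRF1 matches on both strands that overlap and form 1 run of capitals, as in Atp5k, and the Atp5k promoter holds matches to 3 of the motifs. Among the 71 member promoters, GCGCATGCG was found in 8 (11.3%), against 1.75% of all 32851 promoters in the table. CGGAAG was found in 27 (38.0%, against 16.9%), AAGATGGCG in 7 (9.86%, against 1.40%) and AAGGTCA in 8 (11.3%, against 4.72%). A match is a string of letters and no measure of binding.

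Of the 86 members, 83 passed the filter on low counts and were tested. The 3 others were Cox7b2 and Cox8c, testis forms of complex IV subunits, and a second gene ID of Atp5o (ENSMUSG00000116933), a gene model that overlaps the first one and is listed at 0. Cox7b2 had 3 and 4 counts in Ang II replicates 1 and 4 and none elsewhere, and Cox8c had 0 counts in every library, which allows up to 0.210 CPM (a gene's reads scaled to a common library size, with TMM factors) in the shallowest one. Of the members, 38 overlap another gene model between gene start and gene end, introns included, and 30 of them overlap one on the other strand. Whether exons overlap was not checked. Where they do, reads of the other strand cannot be told apart in counts not stated to use strand.

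Subunit levels differed by orders of magnitude, and in complexes II, III and V a single gene supplied a large part of the counts. Members together took 0.640% to 0.741% of a library's counts. Atp5b, which encodes the catalytic beta subunit of the ATP synthase, supplied 35.1% of the counts of complex V, at a mean level of 961 CPM over the 7 libraries. Sdha, the flavoprotein of succinate dehydrogenase, supplied 65.6% of those of complex II, at 325 CPM, and Uqcrc1 supplied 32.0% of those of complex III. Per kilobase of the gene length in the deposited table, the highest levels were those of Cox8a (273 CPM per kilobase), Atp5b (227), Atp5a1 (201), the partner of Atp5b in the catalytic head, Cox6a1 (186) and Cox4i1 (140). Per kilobase of the main GENCODE M21 transcript the highest was Atp5b (501 CPM per kilobase), followed by Cox4i1 (283), Cox8a (270) and Atp5a1 (255). That transcript is the longest principal one, so it can be long, as for Atp5g1 (4715 bases), and may hold rarely used exons. Within complex I the highest level on either length was that of Ndufa4 (103 CPM per kilobase of gene length, 234 of transcript), a protein later placed in complex IV, and the lowest was that of its paralog Ndufa4l2 (1.36 and 1.59). In complex II, Sdha was highest (78.9 and 112), and the lowest was the iron-sulfur subunit gene Sdhb by gene length (22.0) and the membrane anchor gene Sdhc by transcript length (23.8). In complex III, Uqcr10 was highest by gene length (81.0) and the hinge protein gene Uqcrh by transcript length (159), while the lowest were Uqcr11 (29.8) and Uqcrq (41.5). The lowest tested member of complex V on either length was Atp5s (5.33 and 6.80), a coupling factor that is not part of the standard subunit set, and that of complex IV was Cox6a2 (1.72 on both).

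The question the design puts to these genes is whether the retinal transcripts of the respiratory chain differed after 28 days of Ang II infusion. No member passed the test, and most log2 fold changes (Ang II over saline) were close to 0. With edgeR's quasi-likelihood test, 0 of the 83 members had an adjusted p under 0.05 (smallest adjusted p = 0.982), beside 0 of all 17078 genes tested (0.00%). At an unadjusted p under 0.05 there were 4 members (4.82%), all lower in Ang II, where 1.72% of all genes were lower at that level, and 0 members were higher, where 2.90% of all genes were. DESeq2 called 0 members (0.205% of all genes), and limma-voom with quality weights called 1, Cox8b (0.668% of all genes). The median log2 fold change of the 83 members was -0.05 and 55 were below 0 (66.3%), beside a median of -0.0048 and 51.1% below 0 over all genes, and -0.02 and 56.9% over the 10430 genes with a mean of at least 10 CPM. The 95% interval of the difference lay within 0.5 of 0 on the log2 scale for 69 of 83 members (83.1%, against 54.9% of all genes). Among members with a mean of at least 10 CPM it was 88.5%, and among all such genes 86.0%.

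**Figure D1:**
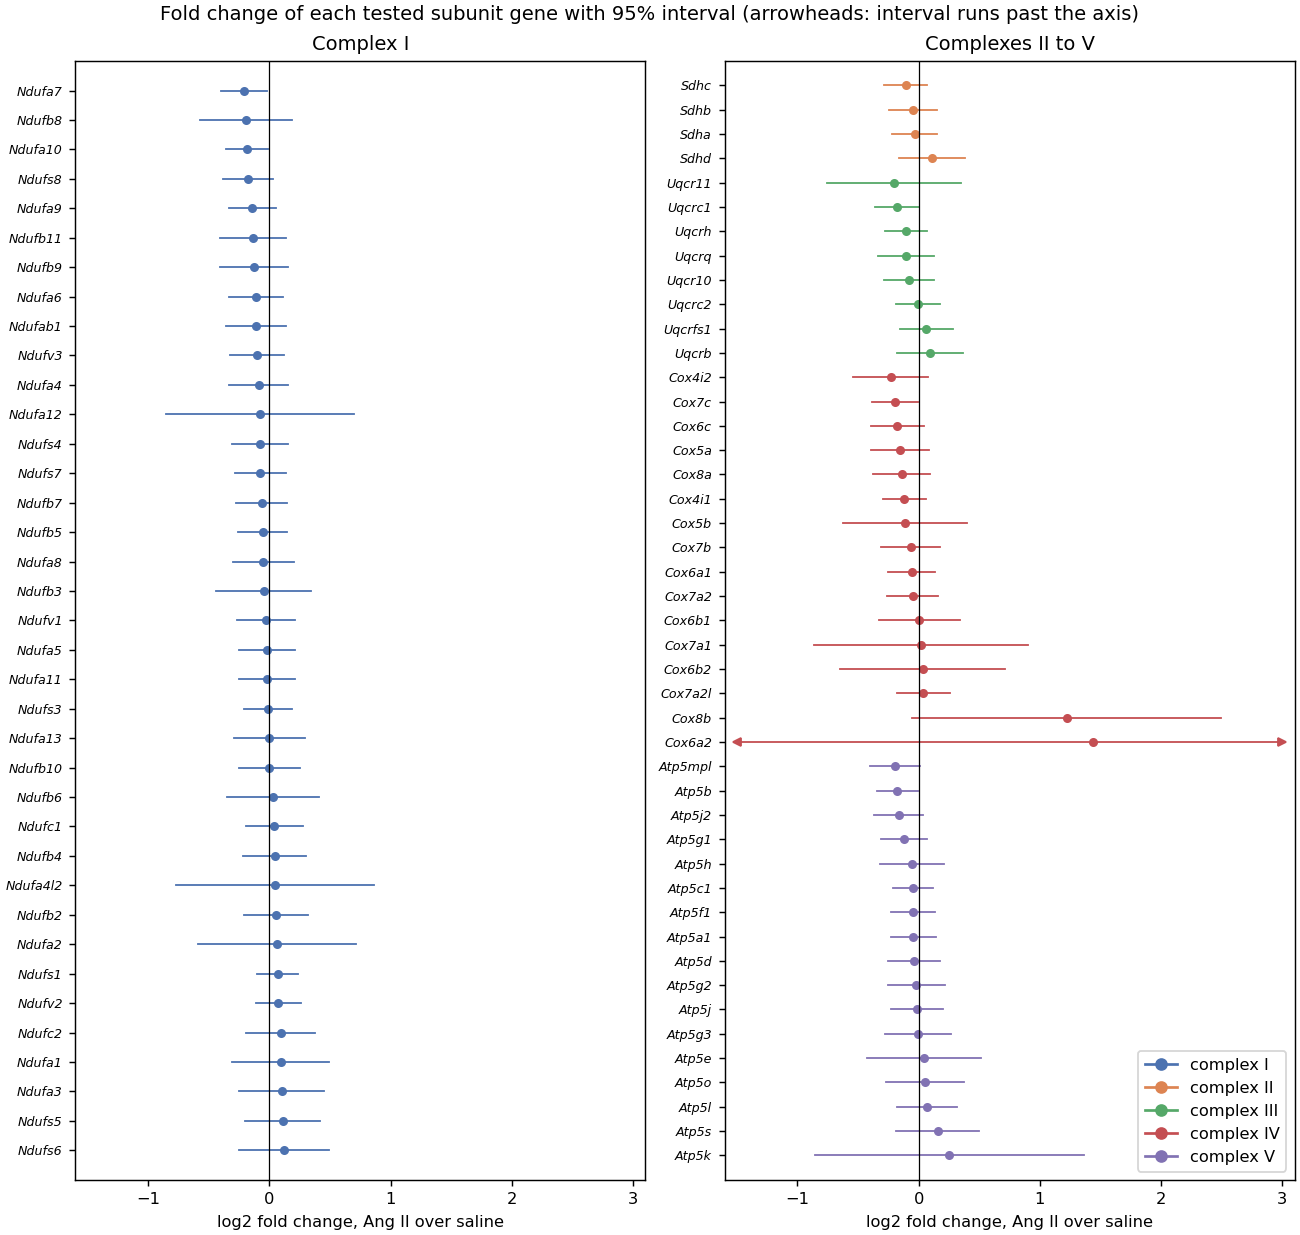
Log2 fold change (x axis, Ang II over saline) of 82 of the 83 tested subunit genes (1 per line), with points at the estimate, lines for the 95% interval of the edgeR fit and colours for complexes I to V. Nearly all points lie close to 0 with short intervals, and the 2 points far to the right are Cox8b and Cox6a2, whose intervals include 0.

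Complex I, the NADH dehydrogenase, had 24 of 38 members below 0 and a median of -0.04. Its 7 core subunits, which carry the electron path, ranged from -0.17 (Ndufs8, an iron-sulfur subunit) to 0.08 (Ndufv2, the NADH-side iron-sulfur subunit), with 5 below 0. The other 31 members, mostly accessory subunits around the core, ranged from -0.21 (Ndufa7) to 0.12 (Ndufs6), with 19 below 0. Complex II had 3 of 4 below 0 and a median of -0.04. Sdhd, a membrane anchor, was the exception at 0.11 ± 0.13 (SE), Sdhb was at -0.04 ± 0.09 and Sdha at -0.03 ± 0.09, all with intervals that include 0. Complex III, the cytochrome c reductase, had 6 of 8 below 0 and a median of -0.09, with Uqcr11 lowest at -0.20 and Uqcrb, which binds ubiquinone, highest at 0.10. For Uqcrq, a small subunit, the value was -0.10 ± 0.11.

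Complex IV, cytochrome c oxidase, had 10 of 16 tested members below 0 and a median of -0.06. Of its 10 general subunits 9 were below 0, with a median of -0.11. Of the 5 tested tissue forms 1 was below 0, but 4 were without Ang II replicate 3, with limma-voom or with the skeletal muscle covariate, and the difference between the forms was not tested. The small subunit genes Cox7c (-0.20 ± 0.09) and Cox6c (-0.17 ± 0.10) had the smallest p among the general ones. The complex V genes had 12 of 17 below 0 and a median of -0.03, which 1 library could turn. The count was 6 (median 0.02) without saline replicate 1, 7 (0.03) without saline replicate 3 and 7 (0.0072) without Ang II replicate 2, and 5 (0.01) with library size scaling. In the other direction, the complex V count was 17 (-0.15) with limma-voom and 15 (-0.135) without saline replicate 2. In complex I the count was 17 of 38 (median 0.02) without Ang II replicate 2 and 19 (0.0087) with library size scaling. It was 33 (-0.12) with limma-voom and 31 (-0.09) without saline replicate 2. In complex II library size scaling left 1 of 4 below 0 (median 0.0078), and leaving out saline replicate 2 gave 4 (-0.04). The complex III count was 4 of 8 (-0.02) without saline replicate 3 and 8 (-0.11) without saline replicate 2. For complex IV it was 9 of 16 (-0.03) without Ang II replicate 2 and 14 (-0.17) without Ang II replicate 3. In the catalytic head and central stalk 4 of 5 were below 0, led by Atp5b (-0.17 ± 0.08) while Atp5a1 was at -0.04 ± 0.09. The c-ring genes Atp5g1, Atp5g2 and Atp5g3, which encode the same ring protein, were at -0.12, -0.02 and -0.01. The peripheral stalk genes lay between -0.05 and 0.05. Among the small membrane subunits, Atp5mpl (-0.19 ± 0.10) and Atp5j2 (-0.17 ± 0.10) lay below 0, and Atp5k, which helps hold ATP synthase dimers together, was at 0.25 ± 0.45.

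In 9 members (10.8%) every Ang II library lay below every saline library, and in 0 every Ang II library lay above, where all genes gave 2.73% and 3.18% (5.91% in all). Values below are listed in replicate order, Ang II 1 to 4 and then saline 1 to 3. These 9 came from all 5 complexes and their fitted folds (Ang II over saline) were 0.866 to 0.930. Atp5b was at 885, 921, 918 and 918 CPM in Ang II and at 1050, 1037 and 996 in saline. Its groups did not overlap, the saline libraries being the 3 highest, and the log2 fold change of -0.17 had an edgeR adjusted p of 0.982. Ndufa10, an accessory subunit of complex I, was at 135, 129, 127 and 118 CPM in Ang II and at 146, 142 and 145 in saline (-0.18 ± 0.08, SE). Ndufa7, another accessory subunit, was at 50.5, 45.9, 50.4 and 47.9 CPM in Ang II and at 54.8, 57.5 and 56.4 in saline (-0.21 ± 0.09). For each of these 3 genes the 3 saline libraries lay close together.

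Cox7c was at 60.7, 65.0, 68.1 and 66.1 CPM in Ang II and at 69.9, 75.3 and 78.2 in saline. Uqcrc1, a core protein of complex III, was at 200, 184, 192 and 192 CPM in Ang II and at 204, 234 and 213 in saline (-0.18 ± 0.08). Uqcrh was at 81.9, 79.6, 86.1 and 89.0 CPM against 89.6, 92.0 and 90.0, so that Ang II replicate 4 and saline replicate 1 nearly met. Ndufa9, an accessory subunit of complex I, and Sdhc also lay below saline in every Ang II library, with log2 fold changes of -0.14 and -0.11. With edgeR the adjusted p of all 9 was 0.982.

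**Figure D2:**
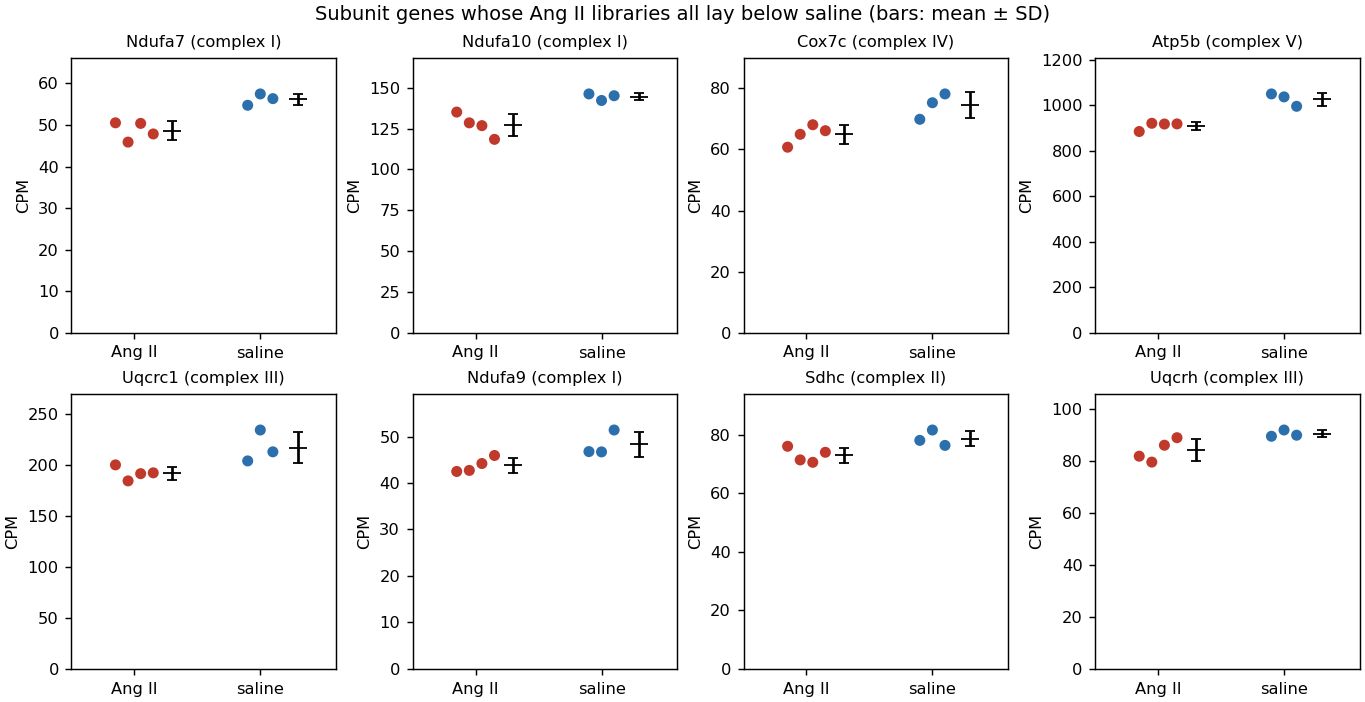
CPM (y axis from 0) in each Ang II library (red, 4 points, in replicate order) and each saline library (blue, 3 points) for 8 of the 9 members whose groups did not overlap, with the mean ± SD beside the points. Saline lies above Ang II in each panel by a small share of the level, as for Atp5b at 911 ± 17.2 against 1027 ± 28.4 CPM.

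That count changed with the libraries kept and with the scaling. With a library left out the rule is easier to meet, so the count tends to rise for members and for all genes alike. Counts below are of 83 tested members. Without Ang II replicate 3 the count was 17, all lower, where 4.23% of all genes were lower and 4.85% higher. Without saline replicate 1 it was 14, with 13 lower, against 5.48% lower and 6.26% higher among all genes. Without saline replicate 2 it was 20, with 19 lower, against 7.16% and 7.51%, and without saline replicate 3 it was 14, with 10 lower, against 7.91% and 8.96%. Leaving out both the Ang II library in which these genes were highest (replicate 3) and the saline library in which they were lowest (replicate 2) gave 43 lower and 1 higher, against 11.5% and 10.7% of all genes. Leaving out the opposite pair, Ang II replicate 2 and saline replicate 3, gave 11 lower and 5 higher, against 10.4% and 11.5%. Both pairs were chosen after the members' values were seen, and each choice sets the direction in which the members move, so neither count is support for a direction. With the library size as the scaling it was 4, with 3 lower (against 1.31%) and 1 higher (against 4.99%). That scaling moved the median of all genes to 0.04 and the median of the members to 0.00093, so the members again lay below all genes, by about as much as with TMM scaling, while their direction against 0 turned.

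Markers of photoreceptors lay in the same direction between the groups, though 0 of them had an edgeR adjusted p under 0.05. All 12 rod markers were below 0 (median -0.21), and their summed level was 55410 to 67400 CPM in Ang II and 68850 to 73440 in saline, without overlap. Within Ang II the order of the libraries differed from that of the members. The rod sum was lowest in replicate 3, where the members were highest. It was 64690 CPM in replicate 2, where the members were lowest. The 9 cone markers were all below 0 (median -0.20), with summed levels of 713 to 958 and 844 to 1056 CPM. Lens markers, mostly crystallin genes, summed to 1.57 to 2945 CPM in Ang II, highest in replicate 2, and to 40.5 to 589 in saline. The part of these markers in the values of the respiratory chain genes was not tested. In bulk tissue, fewer cells of a type and less RNA per cell cannot be told apart.

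The median level of the members moved between libraries of the same group by more than the groups differed. Relative to the mean of the other 6 libraries, the median shift of the 78 members with a mean of at least 10 CPM was -0.06, -0.13, 0.13 and 0.0024 on the log2 scale in the 4 Ang II libraries and 0.09, -0.13 and 0.13 in the 3 saline ones. Thus Ang II replicate 3 and saline replicate 3 were high and Ang II replicate 2 and saline replicate 2 low. Saline replicate 2 was the lowest library for 31 of the 78 members (39.7%, against 21.1% of the 10111 protein-coding genes at that level). The members did not all move together there, since it was also the highest library for 12 (15.4%, against 24.5%). Ang II replicate 2 was the lowest for 22 (28.2%, against 11.5%) and the highest for 0 (against 7.15%). Saline replicate 3 was the highest for 24 (30.8%, against 18.4%) and Ang II replicate 3 for 21 (26.9%, against 16.4%).

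**Figure D3:**
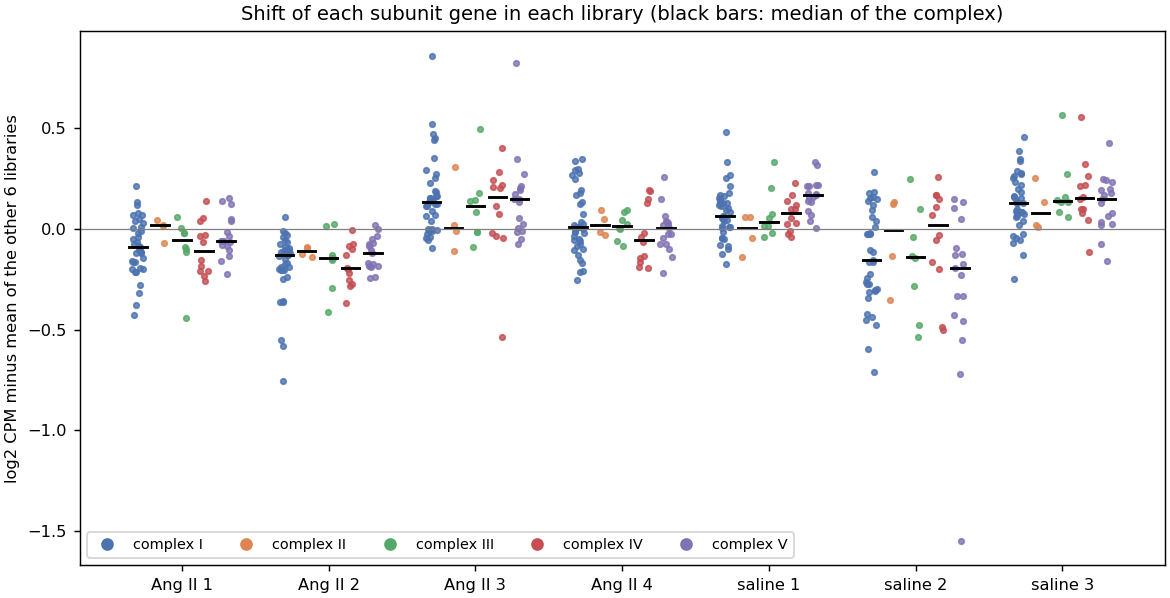
Shift of each of the 78 members with a mean of at least 10 CPM (y axis, log2 CPM minus the mean of the other 6 libraries) in each library (x axis), coloured by complex, with black bars at the median of each complex. Points spread upward in Ang II 3 and saline 3 and downward in Ang II 2, and saline 2 has the widest spread (SD 0.29 over members), with Atp5k lowest.

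The shift was larger for short transcripts. In saline replicate 2 the median shift was -0.26 over the 36 members with a main transcript under 800 bases, -0.16 over the 23 with 800 up to 1500 bases and -0.03 over the 19 with 1500 bases and over. In Ang II replicate 3 the same medians were 0.15, 0.14 and -0.0077, in saline replicate 3 they were 0.19, 0.10 and 0.09, and in Ang II replicate 2 they were -0.18, -0.14 and -0.11. All protein-coding genes at this level followed the same order, with medians of -0.14, -0.08 and 0.03 in saline replicate 2 over 229, 938 and 8937 genes. As a description across genes, which are not independent, Spearman's rho between shift and transcript length over the 78 members was 0.32 in saline replicate 2, 0.28 in Ang II replicate 2, -0.40 in Ang II replicate 3 and -0.33 in saline replicate 3. The part of transcript length in the group differences was not tested.

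**Figure D4:**
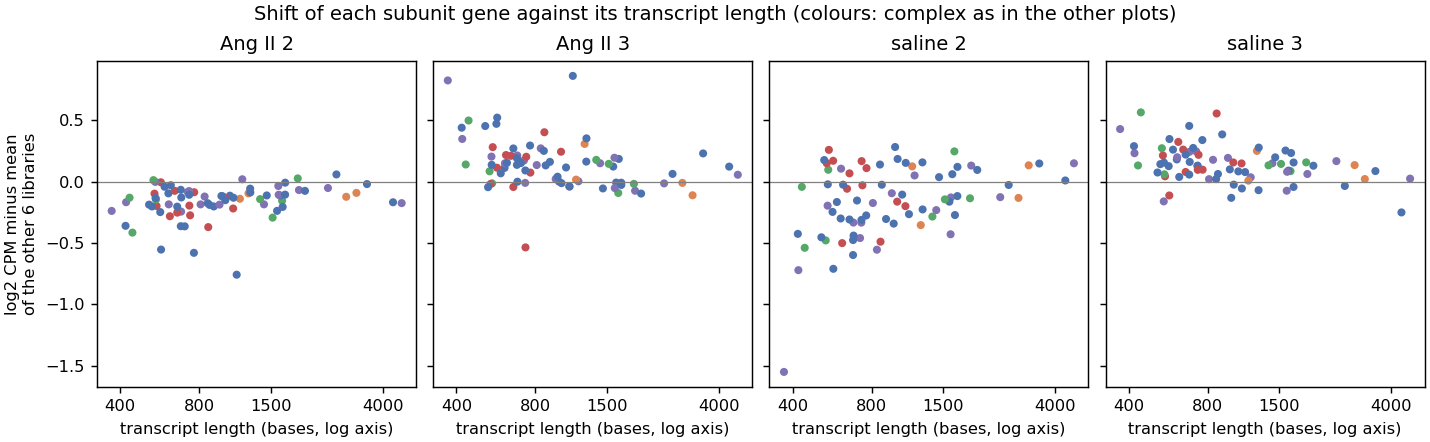
Shift of each of the 78 members (y axis, log2 CPM minus the mean of the other 6 libraries) against the length of its main transcript (x axis, bases, log axis) in 4 libraries, with complex I in blue, II in orange, III in green, IV in red and V in purple. The median of transcripts under 800 bases is lowest in saline 2, at -0.26, and lies above 0 in Ang II 3 (0.15) and saline 3 (0.19).

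Single genes show the size of that spread. Atp5k, with a transcript of 371 bases, was at 19.7, 17.7, 33.5 and 23.8 CPM in Ang II and at 24.9, 8.06 and 26.4 in saline. The groups overlapped, with Ang II replicate 3 highest and saline replicate 2 lowest. Cox5b, a general subunit of complex IV, was at 47.3, 42.3, 67.0 and 52.0 CPM in Ang II and at 56.0, 39.4 and 73.4 in saline, with the same library lowest and saline replicate 3 highest. Without saline replicate 2 the median of the members was -0.10 with 71 of 83 below 0. Without saline replicate 3 it was -0.0016 with 42 below 0, and without Ang II replicate 2 it was -0.0034 with 42 below 0. Without the pairs of libraries chosen above after the values were seen, it was -0.15 with 75 below 0 (Ang II replicate 3 and saline replicate 2) and 0.04 with 32 below 0 (Ang II replicate 2 and saline replicate 3). How far the members lay from 0 as a group, and on which side, thus moved with the libraries kept.

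The tissue-restricted forms of complex IV were at low levels in the retina beside their general counterparts. Per kilobase of deposited gene length, means over the 7 libraries were 5.67 CPM for Cox8b and 273 for Cox8a, 1.72 for Cox6a2 and 186 for Cox6a1, 2.81 for Cox7a1 and 54.95 for Cox7a2, 3.38 for Cox6b2 and 75.2 for Cox6b1, and 28.7 for Cox4i2 and 140 for Cox4i1. Cox8b, a form of subunit 8 known from heart, muscle and brown fat (ENSMUSG00000025488, chromosome 7, 140898945 to 140900446, mm10), was at 2.67, 2.26, 4.05 and 1.87 CPM in Ang II and at 0.310, 0.561 and 2.57 in saline. Saline replicates 1 and 2 lay below all Ang II libraries, and saline replicate 3 lay among them. The log2 fold change was 1.22 ± 0.58 (SE), with a 95% interval from -0.05 to 2.49 and an edgeR adjusted p of 0.982. Without saline replicate 3 it was 2.64 with an edgeR adjusted p of 0.0137, where 0.667% of all genes were called, and with limma-voom it was 2.37 (adjusted p = 0.0257). Over the alternatives tried, the adjusted p ran from 0.0137 to 0.9998 and the value stayed above 0.

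Most pigment epithelium markers were likewise higher in Ang II by fold change. Rpe65, the retinoid isomerase of that cell layer, which lies against the photoreceptors, was at 152, 147, 204 and 107 CPM in Ang II and at 19.8, 25.9 and 92.0 in saline. As for Cox8b, Ang II replicate 3 was highest and saline replicates 1 and 2 lowest, but for Rpe65 saline replicate 3 also lay below every Ang II library. Of the 14 pigment epithelium markers 13 were above 0, with summed levels of 1416 to 1801 CPM in Ang II and 741 to 1346 in saline, and none of them was at 0 in any library. Much of that sum came from 2 genes near 0, Rlbp1 (0.07), also listed for Muller glia, and Otx2 (0.06). Their means were 446 and 247 CPM in Ang II and 425.5 and 237 in saline. For others, such as Tyrp1 and Pmel, the groups overlapped, and Mlana was at -0.14. With the mean log2 CPM of all 14 markers as a covariate, the log2 fold change of Cox8b was 0.05, but this covariate itself differs between the groups. With the skeletal muscle markers, which were also highest in Ang II replicate 3, as the covariate it was 1.07. What part either kind of marker has in the values of Cox8b was not tested. Its general counterpart Cox8a was at 128, 131, 174 and 135 CPM in Ang II and at 147, 172 and 152 in saline, and there the groups overlapped.

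Cox6a2, the heart and skeletal muscle form of subunit 6A (ENSMUSG00000030785, chromosome 7, 128205435 to 128206387, mm10), was at 1.02, 0, 5.18 and 0.241 CPM in Ang II and at 1.05, 0 and 0.672 in saline. Only Ang II replicate 3 stood above the rest, with 82 counts where the other 6 libraries had 0 to 18. Skeletal muscle markers stood apart in the same library. Their summed level over 18 genes was 517 CPM there, 33.6 to 58.0 in the other 3 Ang II libraries and 33.4 to 75.3 in saline, and Tnnt3 and Tnni2, fast troponin genes, were at 0 in Ang II replicate 2 and saline replicates 2 and 3. Without Ang II replicate 3 the log2 fold change of Cox6a2 turned from 1.43 ± 1.63 to -0.44, and with a covariate of the muscle markers it was -0.96. The general form Cox6a1 was at 116 to 139 CPM in Ang II and at 122 to 144 in saline.

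**Figure D5:**
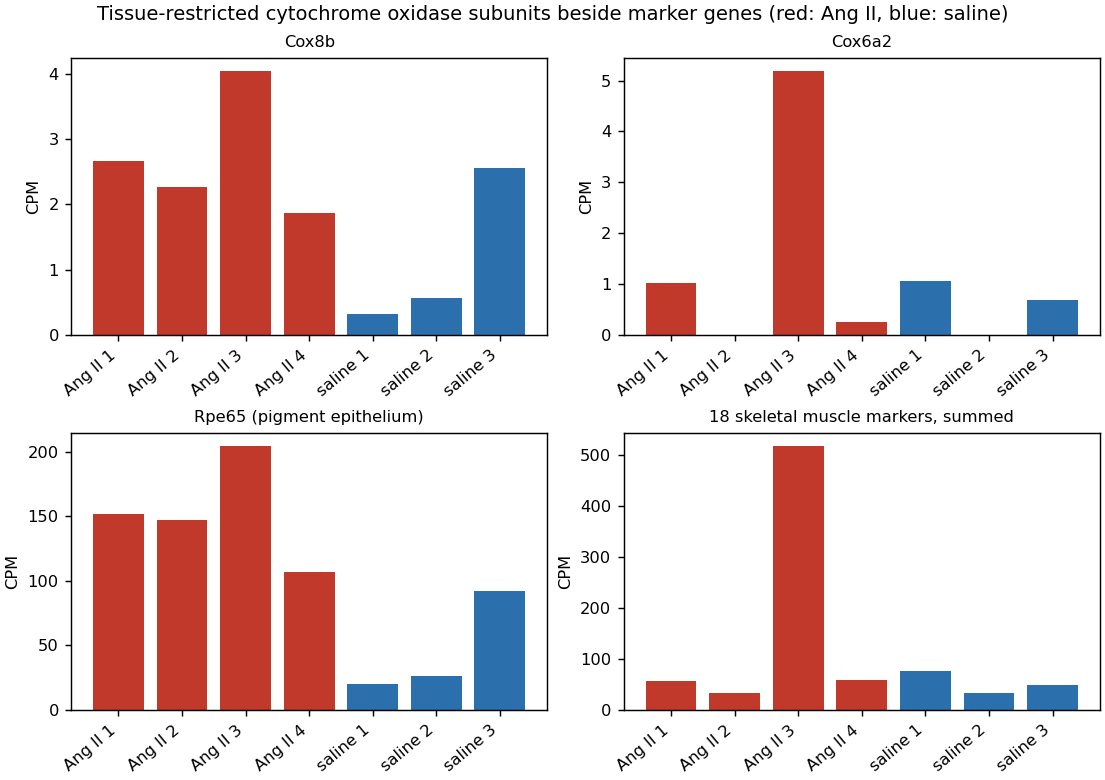
CPM per library (bars from 0, red for Ang II, blue for saline) of Cox8b above Rpe65 and of Cox6a2 above the sum of 18 skeletal muscle markers. Cox8b and Rpe65 are both lowest in saline 1 and saline 2, and Cox6a2 and the muscle sum are both highest in Ang II 3.

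Other tissue forms showed no such split. Cox4i2, the form of subunit 4 known from lung and from hypoxic cells, was at 22.9, 19.9, 16.3 and 25.2 CPM in Ang II and at 25.6, 24.7 and 23.7 in saline. The groups overlapped through Ang II replicate 4, and the general form Cox4i1 was at 196 to 226 CPM in Ang II and 220 to 231 in saline. Cox7a1, the muscle and heart form whose promoter is shown above, was at 0.737 to 2.40 CPM in Ang II and 1.16 to 1.96 in saline, beside 44.6 to 55.9 and 50.5 to 54.3 for Cox7a2. Cox7a2l, a relative that helps join complexes III and IV, was at 97.7 to 124 CPM in Ang II and 98.8 to 122 in saline. Cox6b2, a form known from testis, was at 2.26 to 5.44 and 2.52 to 4.40 CPM, beside 44.5 to 59.9 and 39.0 to 63.8 for Cox6b1. Cox7b, the general counterpart of Cox7b2, was at 42.9 to 56.3 and 44.2 to 53.4 CPM. Ndufa4l2, which hypoxia is known to induce, was at 0.978 to 2.02 and 1.04 to 1.80 CPM, beside 125 to 151 and 119 to 166 for Ndufa4. For these tissue forms the ranges of the groups overlapped. Of the c-ring genes, Atp5g3 was at 129 to 150 CPM in Ang II and 103 to 157 in saline. Atp5g2 was at 66.2 to 74.5 and 56.8 to 78.6 CPM, and Atp5g1 at 50.9 to 58.4 and 57.3 to 61.8, so that in saline replicate 2 the former pair were at their lowest and Atp5g1 at its highest.

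The genes around the respiratory chain did not pass the test either, and 0 members of any of the 6 lists below had an edgeR adjusted p under 0.05. Of 16 tested complex I assembly factors 10 were below 0 (median -0.0099), with Tmem186 at 0.27 ± 0.14 (SE) and Ndufaf4 at 0.17 ± 0.11. Of 32 tested assembly factors of complexes II to V 16 were below 0, with Lyrm7, a complex III factor, at 0.39 ± 0.22 and Cox16, a complex IV factor, at -0.36 ± 0.21. Among 25 tested genes for electron carriers, for subunits that the name rule misses and for exchange across the inner membrane, a list that also holds Atp5mpl, 20 were below 0 (median -0.07). In it Ucp2, an uncoupling protein gene, was at 0.49 ± 0.19 and Atpif1, the inhibitor of the ATP synthase, at -0.27 ± 0.12.

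Of 20 regulators of mitochondrial biogenesis 10 were below 0 (median -0.0018), with the coactivator genes Pprc1 at -0.37 ± 0.13 and Ppargc1b at -0.24 ± 0.13. Of 17 citrate cycle genes 13 were below 0 (median -0.05), with Suclg2 at 0.48 ± 0.22 and Mdh2 at -0.16 ± 0.08. Their summed level was 1788 to 1865 CPM in Ang II and 1895 to 1904 in saline, without overlap, while the sums of every other list here overlapped between the groups. Of the 12 tested mitochondrially encoded subunits 6 were below 0 (median -0.00074), with mt-Atp6 at 0.54 ± 0.25 and mt-Co3 at -0.31 ± 0.18. The summed level of the mitochondrially encoded subunits was 26740 to 31940 CPM in Ang II and 28570 to 31410 in saline, which overlapped.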

How the data were processed

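Gene counts of 7 mouse retina libraries, poly-A selected with no strand-marking step described, per the labels' protocols, were used. The authors deposited whole-number counts per gene without normalization, and the submitters' processing notes name CASAVA, HISAT2 2.0.5, featureCounts 1.5.0-p3 and mm10. The annotation release, the strand setting and the rule for reads that match several genes are not given in the sources used here, so members with near copies elsewhere are uncertain. Gene lengths are those the authors deposited, and main transcripts are the longest APPRIS principal ones of GENCODE M21. Of the gene IDs, 98.3% of those found there had the same start and end. Columns were matched by sample descriptions, and 0 had no match.

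Libraries were grouped by their titles and treatment labels. All genes kept by filterByExpr were fitted with the quasi-likelihood test of edgeR 4.0.16 (R 4.3.3, robust, two-sided, TMM scaling, Benjamini-Hochberg adjustment over all genes, threshold 0.05) with the group as the sole term. Standard errors came from the F statistic, 95% intervals from its degrees of freedom, with a prior count of 2 for log2 CPM. DESeq2 1.42.0, limma-voom (limma 3.58.1), other scalings and filters, left-out libraries, a replicate block and 2 marker covariates were alternatives. The steps were tested on simulated data. Genes named with fold changes were the 3 of smallest p in each complex and those without overlap between the groups. Levels were given for the highest and lowest genes per kilobase and for the tissue forms, 2 genes of smallest p were named for each pathway list, and any other gene was chosen after its values were seen. The values of 1 member are not reported here, though it enters the counts and medians. The members and lists were chosen with earlier results of these data known. Floors (3 counts for a count of 0) cover counting error alone. Every pair of libraries of a group differed by more than sampling noise, with chi-square values of 10.1 to 21.4 for each degree of freedom.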

Additional observations from a re-analysis of the deposited data

Results flagged for a closer look

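Among 89 values checked in the 4 Ang II libraries (subunit genes with a mean of at least 1 CPM, and shares of counts), 3 had 1 library set apart from the other 3 by a gap that was large against the range of the group, and chance flags about 1 in 20. In Ang II replicate 1 Atp5b reached 884.8 CPM, while the other 3 ranged from 917.8 to 921, a small difference that drew attention because those 3 lay very close together. Ang II replicate 3 had 174.4 CPM of Cox8a and the others 128.4 to 135.4, above the saline range of 146.5 to 172.2. Ndufs1, the largest core subunit gene of complex I, had 92.09 CPM in replicate 4 of Ang II, where the others had 98.63 to 99.18, within the saline range of 90.93 to 93.72 CPM.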

How the results depend on the processing

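Across all genes, edgeR called 0, DESeq2 35, limma-voom 114, edgeR with no filter on low counts 98 and with the replicate block 56, with 101 without Ang II replicate 2 and saline replicate 3 together, and leaving out 1 library gave 0 to 117, the latter without saline replicate 3. Members called were 0, except 1 (Cox8b) with limma-voom, 1 (Cox8b) without that pair and 0 to 1 when 1 library was left out. Members without overlap numbered 9, against 4 with library size scaling, 9 to 20 with 1 library left out and 44 without Ang II replicate 3 and saline replicate 2 together and 16 without Ang II replicate 2 and saline replicate 3 together. Both pairs were chosen after seeing the data, and leaving out libraries makes the rule of no overlap easier to meet. Members below 0 numbered 32 without the latter pair and 74 (median -0.13) with limma-voom, against 55. The median of the members ranged from -0.15 to 0.04 over the alternatives, so its sign turned under some of them. It moved by less than 0.11 under each, the SD between library medians within groups. That SD describes single libraries and is not the error of a group difference, so it is no sign that the median was stable. Sdhb turned to 0.0023 with library size scaling and to 0.014 with the pigment epithelium covariate. Sdhd turned to -0.12 with that covariate, to -0.0015 without saline replicate 2 (its range with 1 library left out was -0.0015 to 0.27) and to -0.076 without that library and Ang II replicate 3. The cause was not tested. The difference in the share of counts in members, -0.0132 percentage points, ranged from -0.0375 to 0.00857 with 1 library left out. Same-numbered libraries correlated at -0.07, -0.02 and 0.05 once the group means were taken out. These values gave no sign that the numbers pair the libraries, but with so few libraries they cannot exclude it. Under the replicate block, which leaves Ang II replicate 4 without a partner, the members had a median of -0.05 with 61 below 0. Depth limits Cox6a2, Cox7a1, Cox8b and Ndufa4l2, whose levels were a few CPM.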
